A study of Mus musculus with 4 samples.

Results

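Transforming growth factor β (TGF-β) and bone morphogenetic protein (BMP) signalling was followed through 40 genes, chosen by symbol from a written list of ligands, receptors, SMAD proteins, antagonists and target genes. All 40 have a row of their own among the 23238 symbols of the count tables, and 35 had enough counts to be tested. The cells were primary pancreatic acinar cells of C57BL/6J mice, the exocrine cells that make digestive enzymes. They received an adenovirus carrying either the estrogen-related receptor γ (ERRγ, gene Esrrg), an orphan nuclear receptor known for its role in oxidative metabolism, or green fluorescent protein (GFP). Both groups were otherwise handled alike, with a multiplicity of infection of 100, 36 h between virus and harvest, and 25 ng/ml epidermal growth factor in a serum-supplemented medium. Each group has 2 libraries, numbered 1 and 2, made from 500 ng total RNA with a QuantSeq kit, which reads transcripts near their poly(A) tail. The labels name neither the promoter that drives the viral gene nor the animals behind each library, so a p-value speaks for the spread between these 4 samples alone, and that spread may be technical.

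Ligands of this family bind paired type I and type II receptor kinases on the cell surface. TGF-β and activin receptors phosphorylate SMAD2 and SMAD3, whereas BMP receptors phosphorylate SMAD1 and SMAD5, and both sets enter the nucleus with SMAD4. The Id genes, whose products block basic helix-loop-helix transcription factors, are textbook BMP targets. In the pancreas TGF-β is known above all for matrix production by stellate cells after injury.

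Libraries held 10.48 and 10.65 M counts in ERRγ cells and 10.11 and 11.01 M in GFP cells. Esrrg had 1453 and 12994 counts in ERRγ libraries 1 and 2 and 86 and 107 counts in GFP libraries 1 and 2, or 706 ± 815 and 9.19 ± 0.570 CPM, read counts scaled to library size (mean ± SD, n = 2 each, as in all values below; log2 fold change 6.26, edgeR adjusted p = 0.0109). ERRγ library 2 thus carried 9.90 times the Esrrg level of ERRγ library 1. Markers fixed for acinar cells summed to 80.1 and 94.0 CPM in ERRγ cells and 78.5 and 44.5 CPM in GFP cells, and Ptf1a, a factor that specifies these cells, had no count in any library. Of the 7 acinar markers tested, 3 had a log2 fold change above 0 and 4 below it. Prss2, a trypsinogen gene with close relatives, rose (20.4 ± 9.01 CPM in ERRγ cells, 2.97 ± 1.15 CPM in GFP cells, edgeR adjusted p = 0.00905), and the other 6 did not pass. Among those 6, the digestive enzyme genes Cpa1 (log2 fold change −0.84, SE 0.91) and Pnlip (−0.93, SE 0.85) overlapped between groups, with GFP library 1 highest. Rbpjl (1.99, SE 0.62, edgeR adjusted p = 0.0997) and Ctrb1 (0.34, SE 0.20) pointed the other way. Ductal markers summed to 2677 and 3356 CPM in ERRγ cells and 3690 and 3592 CPM in GFP cells, so the cultures went against the acinar label in the transcripts they held. Of the 7 ductal markers the keratin gene Krt7 fell (798 ± 4.56 CPM in ERRγ cells, 1253 ± 13.0 CPM in GFP cells; edgeR adjusted p = 0.0285), the chloride channel gene Cftr rose (13.0 ± 0.326 CPM in ERRγ cells, 5.44 ± 1.19 CPM in GFP cells; edgeR adjusted p = 0.0444), and 5 did not pass. Fibroblast and stellate cell markers summed to 1107 and 758 CPM in ERRγ cells and 1375 and 796 CPM in GFP cells. Endothelial markers lay at 3.68 to 12.8 CPM in sum and leukocyte markers at 6.77 to 13.9 CPM. Ptprc, the defining leukocyte gene, had 1 count in GFP library 1 and 0 elsewhere. Other markers of that list were present in every library: Csf1r had 42 and 72 counts in ERRγ cells and 24 and 37 in GFP cells. Cd68 had 27 and 67 counts in ERRγ cells and 51 and 47 in GFP cells. Islet markers summed to 30.1 and 7.99 CPM in ERRγ cells and 134.7 and 19.2 CPM in GFP cells, with library 1 the higher in both groups. None of the 5 islet markers tested passed with edgeR, and 2 had an unadjusted p under 0.05, the insulin genes Ins1 (log2 fold change −2.41, edgeR adjusted p = 0.195) and Ins2 (log2 fold change −2.09, edgeR adjusted p = 0.164). Several of these cell types use the pathway, and in bulk RNA fewer cells of a type and less RNA per cell cannot be told apart. The part of these cells in the results below was not tested.

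Bmp2, Id2 and Id3 rose in ERRγ cells, and Id1 and the BMP receptor gene Bmpr1a fell. These were the 5 of 35 tested members past the threshold (edgeR quasi-likelihood test, Benjamini-Hochberg adjusted p below 0.05 over all 13070 genes tested). That is read against 6.84% of all genes tested that passed in either direction. The 3 rises stand against 5.06% of all genes tested that rose, and the 2 falls against 1.78% that fell. The groups did not overlap in 22 of the 35 members, 11 with both ERRγ libraries above and 11 with both below, where 54.0% of all genes tested did not overlap, 27.4% with ERRγ above and 26.6% with it below. The median log2 fold change of the tested members was −0.05, against −0.01 for all genes tested, and their median size without sign was 0.49, against 0.30. Another 10 members had an unadjusted p under 0.05 without passing (Tgfb2, Tgfb3, Ltbp3, Inhbb, Bmp4, Bmpr2, Fstl1, Smad1, Smad5 and Smad7), which makes 15 of 35, against 23.1% of all genes tested. DESeq2 called the same 5 members and also Tgfb2 and Smad7, 7 in all, against 8.89% of all genes tested. Limma-voom called Tgfb2, Bmpr1a, Id1, Id2 and Id3, against 6.66% of all genes tested. The plot of members in each library shows all 40 by role.

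**Figure D1:**
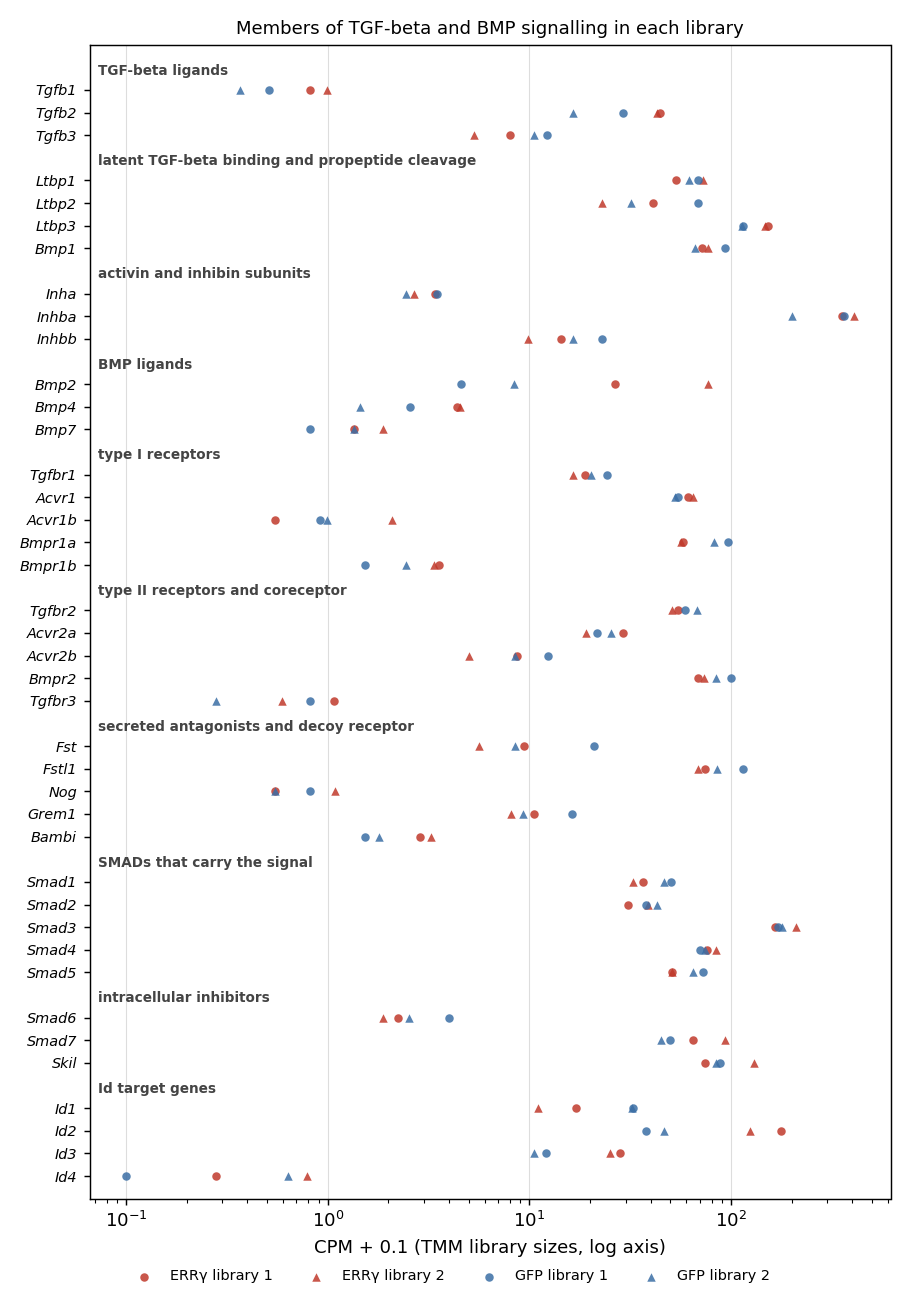
Level of each of the 40 members in each library, as CPM + 0.1 on a log axis, grouped by role; red marks are ERRγ libraries, blue marks GFP libraries, circles library 1 and triangles library 2. Both red marks lie right of both blue marks for Bmp2, Id2 and Id3, and left of them for Id1 and Bmpr1a.

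Promoter sequence is shown for the called members held in the RefSeq promoter table (GRCm38.p6, 250 bases before to 50 after the start), which are Id2, Id3 and Bmpr1a; Bmp2 and Id1 are named only. Capitals mark GGCGCC, a palindrome found in GC-rich elements that BMP-activated SMADs bind. The region chr12:25096043-25096342 on the minus strand belongs to Id2, chr4:136143572-136143871 on the plus strand to Id3, and chr14:34502497-34502796 on the minus strand to Bmpr1a.
Id2: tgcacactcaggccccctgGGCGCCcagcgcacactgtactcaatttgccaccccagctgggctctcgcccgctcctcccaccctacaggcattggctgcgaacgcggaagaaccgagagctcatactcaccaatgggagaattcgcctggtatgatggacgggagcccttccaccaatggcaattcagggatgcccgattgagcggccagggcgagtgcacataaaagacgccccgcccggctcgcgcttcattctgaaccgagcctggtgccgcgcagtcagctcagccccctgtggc
Id3: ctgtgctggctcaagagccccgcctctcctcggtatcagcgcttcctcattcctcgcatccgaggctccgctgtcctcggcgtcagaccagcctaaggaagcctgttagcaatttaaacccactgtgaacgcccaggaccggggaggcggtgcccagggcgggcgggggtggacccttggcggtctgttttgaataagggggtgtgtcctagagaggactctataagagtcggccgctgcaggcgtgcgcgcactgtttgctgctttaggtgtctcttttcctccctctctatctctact
Bmpr1a: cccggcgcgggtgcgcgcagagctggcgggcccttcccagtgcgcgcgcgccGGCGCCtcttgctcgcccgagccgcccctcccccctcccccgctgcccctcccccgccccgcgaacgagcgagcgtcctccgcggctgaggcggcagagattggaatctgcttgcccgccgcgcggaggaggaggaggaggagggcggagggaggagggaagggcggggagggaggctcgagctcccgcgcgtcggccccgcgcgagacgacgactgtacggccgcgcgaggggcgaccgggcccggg
Relative to the RefSeq starts, GGCGCC begins 231 bases before that of Id2 and 198 bases before that of Bmpr1a. All 3 windows lie within the GENCODE M21 spans given below for these genes. The RefSeq starts used here are therefore downstream of the GENCODE gene starts. GGCGCC is not in the Id3 window. The same letters are in 11.9% of the 32851 promoters of the table. The other SMAD palindrome searched, GTCTAGAC, is in none of the 3 windows and in 0.213% of all promoters. Over the 27 members with a promoter in the table, 8 hold GGCGCC, among them Tgfbr1, Acvr1b, Bmpr2, Grem1, Smad5 and Id4, which were not called, and 1 holds GTCTAGAC, the uncalled Smad6. Some members have several starts in the table. The core of the ERR response element, AAGGTCA on either strand, is in none of the windows of the 27 members with a promoter in the table, against 4.72% of all promoters. Its longer form TCAAGGTCA, which contains that core, is in 0.423% of all promoters.

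Id genes encode helix-loop-helix proteins without a DNA-binding region, and the 3 that could be tested all passed, in opposite directions. Id2 had 1987 and 1256 counts in the ERRγ libraries and 369 and 519 counts in the GFP libraries. The lower ERRγ library still stood well above the higher GFP library, at 150.5 ± 37.6 and 42.1 ± 6.24 CPM (3.57-fold, log2 fold change 1.84, SE 0.20, edgeR adjusted p = 0.00283). Id2 lies on chromosome 12 (25093799 to 25097140, minus strand, GENCODE M21, GRCm38, which mm10 is built on). Id3, on chromosome 4 (136143497 to 136145755, plus strand), had 316 and 253 counts in ERRγ cells and 117 and 116 counts in GFP cells. That is 26.6 ± 2.26 against 11.2 ± 1.10 CPM, with no overlap (2.38-fold, log2 fold change 1.25, SE 0.21, edgeR adjusted p = 0.0127).

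Id1, on chromosome 2 (152736251 to 152737410, plus strand), moved the other way. It had 190 and 111 counts in ERRγ cells and 320 and 359 counts in GFP cells, or 13.9 ± 4.23 and 32.4 ± 0.362 CPM (log2 fold change −1.21, SE 0.23, edgeR adjusted p = 0.0224). Both GFP libraries were nearly equal and both ERRγ libraries lay below them, library 2 lowest. Because Id1 fell while Id2 rose, the ratio of Id2 to Id1 counts within a library, which no library scaling can change, was 10.5 and 11.3 in ERRγ cells and 1.15 and 1.45 in GFP cells. The ratio of Id3 to Id1 counts was 1.66 and 2.28 in ERRγ cells and 0.366 and 0.323 in GFP cells. Id4 was too low to test, with 2 and 7 counts in the ERRγ libraries and 0 and 6 in the GFP libraries. Summed over the 4 Id genes the level was 222 and 161 CPM in ERRγ cells and 82.4 and 89.7 CPM in GFP cells. ERRγ library 2, the one with more Esrrg, held 0.700 times the Id2 level, 0.886 times the Id3 level and 0.647 times the Id1 level of ERRγ library 1. In the GFP pair the same ratios were 1.23 for Id2, 0.870 for Id3 and 0.984 for Id1.

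**Figure D2:**
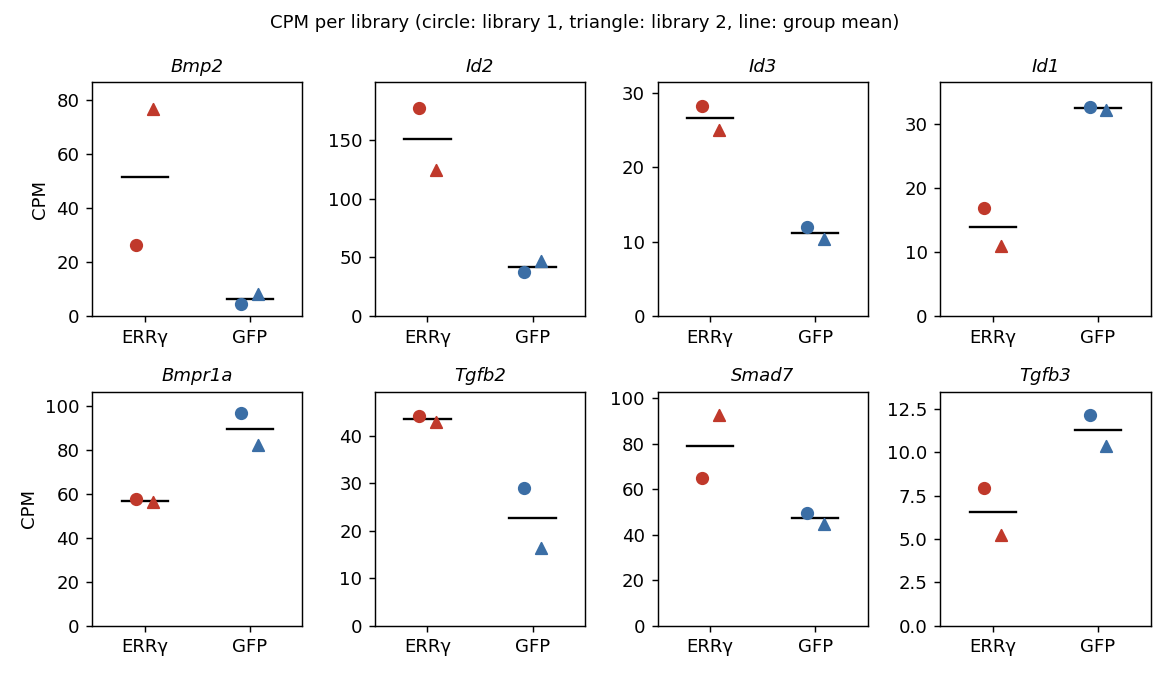
CPM in each library for the 5 members past the threshold and for Tgfb2, Smad7 and Tgfb3, which did not pass; ERRγ stands left of GFP, circles are library 1, triangles library 2 and lines the group mean. Bmp2 in ERRγ library 2 is 76.4 CPM, far above the 26.5 CPM of ERRγ library 1, whereas Bmpr1a is nearly equal in both ERRγ libraries.

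Among the BMP ligands, Bmp2 rose. It had 297 and 774 counts in the ERRγ libraries and 44 and 92 counts in the GFP libraries, which is 51.4 ± 35.3 and 6.37 ± 2.65 CPM. Both ERRγ libraries were above both GFP libraries, and ERRγ library 2, the one with more Esrrg, was 2.89 times as high as ERRγ library 1. GFP library 2 was likewise higher, at 1.83 times GFP library 1, where Esrrg differed by 1.09 times. The log2 fold change was 2.997 (7.98-fold, SE 0.50, edgeR adjusted p = 0.0136), the highest of the 35 tested members. Without ERRγ library 2 it was 2.04 and without ERRγ library 1 it was 3.57. Bmp2 lies on chromosome 2 (133552159 to 133562885, plus strand), and no exon of another annotated gene overlaps its exons. Genes of the annotation class TEC were left out of that search.

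The other BMP ligand genes had few counts. Bmp4 had 48 and 45 counts in ERRγ cells and 24 and 15 in GFP cells, without overlap, and did not pass (log2 fold change 1.20, SE 0.49, edgeR adjusted p = 0.19). Bmp7, with 14 and 18 counts in ERRγ cells and 7 and 14 in GFP cells, did not pass either (0.60, SE 0.65, edgeR adjusted p = 0.635). The 3 ligands together stood at 32.0 and 82.6 CPM in ERRγ cells and 7.66 and 10.8 CPM in GFP cells.

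The receptors through which these ligands signal gave the second fall. Bmpr1a, a type I receptor for BMP2 and BMP4 (chromosome 14, 34410734 to 34503341, minus strand), had 646 and 570 counts in ERRγ cells and 944 and 916 counts in GFP cells. Its level was 56.9 ± 0.938 CPM in ERRγ cells and 89.3 ± 10.1 CPM in GFP cells (log2 fold change −0.65, SE 0.14, edgeR adjusted p = 0.036). The call ended when libraries were scaled by their totals alone (adjusted p = 0.0575). An annotated antisense gene, Gm17110, shares exon sequence with Bmpr1a, and whether the counts used strand is not given in the sources used here. Of the other type I receptors, Bmpr1b, the second BMP type I receptor, had 39 and 33 counts in ERRγ cells and 14 and 26 in GFP cells (log2 fold change 0.83, 95% interval −0.31 to 1.97, edgeR adjusted p = 0.361). Acvr1, which also carries BMP signals, had a log2 fold change of 0.22 (−0.09 to 0.53). Tgfbr1, the TGF-β type I receptor, had −0.33 (−0.80 to 0.14). Acvr1b, an activin receptor, was not tested, with 5 and 20 counts in ERRγ cells and 8 and 10 in GFP cells.

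No type II receptor passed. Bmpr2, the BMP type II receptor, had 771 and 746 counts in ERRγ cells and 973 and 933 counts in GFP cells, and the ERRγ libraries lay below the GFP libraries in CPM (log2 fold change −0.36, SE 0.15, edgeR adjusted p = 0.185). Tgfbr2, its TGF-β counterpart, was placed likewise, at 52.6 ± 2.83 CPM in ERRγ cells and 63.0 ± 6.20 CPM in GFP cells (−0.26, edgeR adjusted p = 0.325). The activin type II receptor gene Acvr2b had 96 and 50 counts in ERRγ cells and 120 and 94 in GFP cells, and in CPM the groups overlapped (−0.61, edgeR adjusted p = 0.362). Acvr2a, with a log2 fold change of 0.04, has an interval of −0.51 to 0.59. Tgfbr3, which encodes the coreceptor betaglycan, was not tested, at 11 and 5 counts in ERRγ cells and 7 and 2 in GFP cells.

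**Figure D3:**
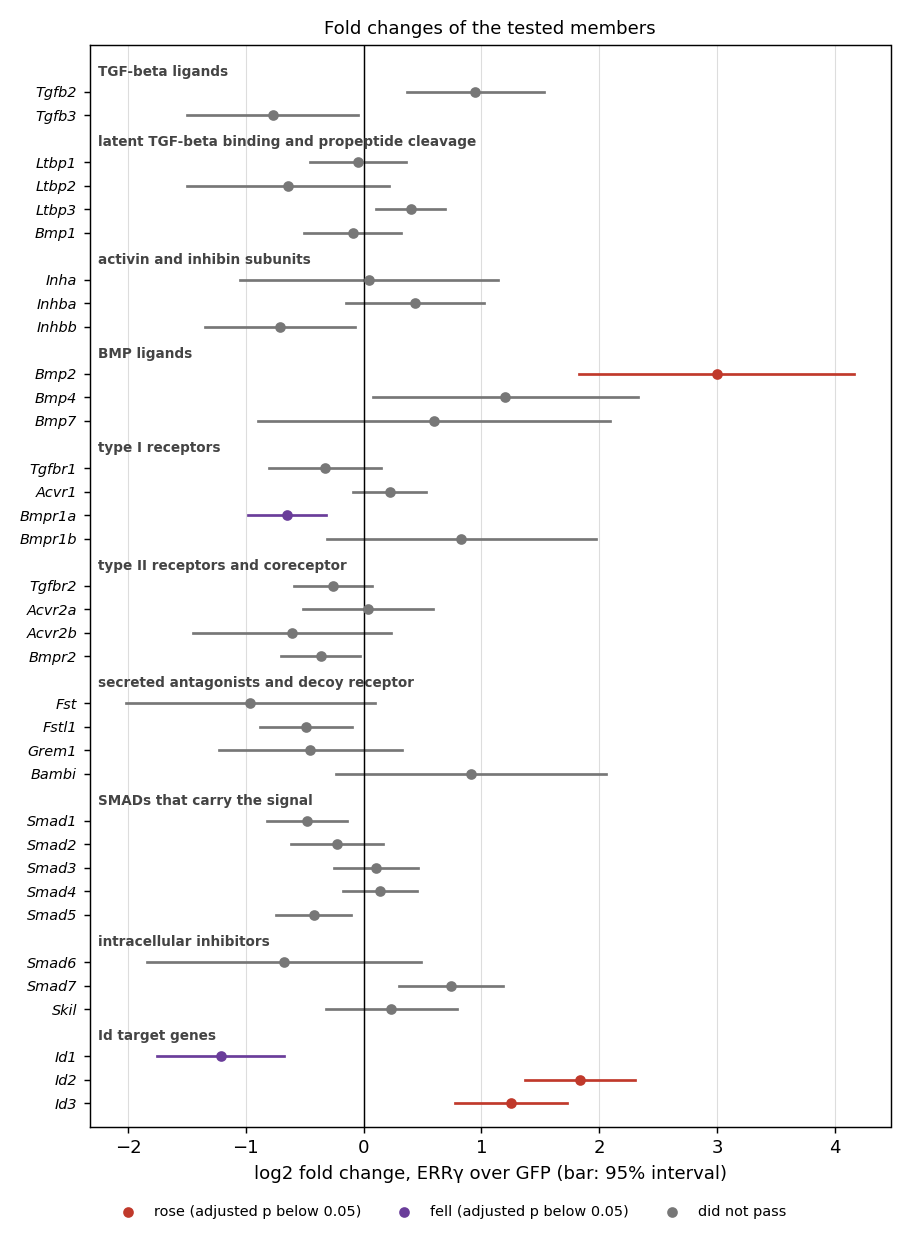
Log2 fold change of ERRγ over GFP for the 35 tested members by role, with bars for the 95% interval of each gene taken alone (not adjusted over genes). Red are rises, purple falls, and grey the 30 members that did not pass; Bmp2 stands farthest right at 2.997 and Id1 farthest left at −1.21.

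TGF-β ligand genes did not pass, and Tgfb2 came close. Tgfb2 had 497 and 436 counts in ERRγ cells and 284 and 183 counts in GFP cells, at 43.6 ± 0.898 and 22.7 ± 8.92 CPM. The ERRγ libraries lay close together, the GFP libraries did not, and the groups did not overlap (log2 fold change 0.95, SE 0.25, edgeR adjusted p = 0.0654). It passed with DESeq2 (adjusted p = 0.0149) and with limma-voom (adjusted p = 0.0486). Tgfb3 had 89 and 53 counts in ERRγ cells and 119 and 116 in GFP cells (−0.77, SE 0.31, edgeR adjusted p = 0.19). Tgfb1 was too low to test, with 8 and 9 counts in the ERRγ libraries and 4 and 3 in the GFP libraries.

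No gene for the storage and processing of these ligands passed. Ltbp3, which tethers latent TGF-β to the matrix, had 1702 and 1500 counts in ERRγ cells and 1119 and 1258 in GFP cells, at 149.8 ± 2.59 and 113.6 ± 1.10 CPM. The difference exceeded the spread of either pair but did not pass (log2 fold change 0.40, SE 0.13, edgeR adjusted p = 0.105). Ltbp1, its relative, had −0.05 (95% interval −0.46 to 0.36). Ltbp2, a relative that does not bind latent TGF-β, had 457 and 232 counts in ERRγ cells and 667 and 354 in GFP cells, with overlap (−0.65, SE 0.37, edgeR adjusted p = 0.344). Its library 1 was the higher one in both groups, as it was for the summed fibroblast and stellate cell markers given above. Bmp1, which despite its name encodes a metalloproteinase that cleaves procollagens, had −0.09 (−0.50 to 0.32).

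Among the activin and inhibin subunits, Inhba, which forms activin A, had 3981 and 4129 counts in ERRγ cells and 3540 and 2243 counts in GFP cells. GFP library 1, at 362 CPM, was above ERRγ library 1, at 355 CPM, so the groups overlapped (log2 fold change 0.44, SE 0.25, edgeR adjusted p = 0.345). Without GFP library 1 the value was 0.92 and without GFP library 2 it was 0.07. Inhbb, which forms activin B, had 159 and 99 counts in ERRγ cells and 224 and 183 in GFP cells, without overlap (−0.71, SE 0.28, edgeR adjusted p = 0.174). The inhibin subunit gene Inha had 26 to 37 counts in all libraries (0.05, 95% interval −1.05 to 1.14).

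Secreted antagonists did not pass. Fst encodes follistatin, which traps activins, and had 105 and 56 counts in ERRγ cells and 204 and 93 in GFP cells (log2 fold change −0.96, SE 0.46, edgeR adjusted p = 0.256). Library 1 was again the higher one in both groups, and without GFP library 1 the value was −0.17. Fstl1, a secreted glycoprotein related to follistatin, had 828 and 693 counts in ERRγ cells and 1117 and 950 in GFP cells, without overlap in CPM (−0.49, SE 0.17, edgeR adjusted p = 0.134). The BMP antagonist gene Grem1 had 117 and 81 counts in ERRγ cells and 158 and 102 in GFP cells (−0.45, edgeR adjusted p = 0.47). Nog, which encodes the BMP antagonist noggin, was not tested at 5 and 10 counts in ERRγ cells and 7 and 5 in GFP cells. Bambi, a receptor-like decoy without a kinase, had 31 and 32 counts in ERRγ cells and 14 and 19 in GFP cells (0.91, SE 0.50, edgeR adjusted p = 0.319).

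The SMADs that carry the signal did not pass. Smad1 and Smad5, the BMP-specific pair, both stood lower in ERRγ cells without overlap. Smad1 had 411 and 330 counts in ERRγ cells and 490 and 517 in GFP cells (log2 fold change −0.48, SE 0.15, edgeR adjusted p = 0.0972), and Smad5 had 50.9 ± 0.0204 CPM in ERRγ cells and 68.3 ± 5.57 CPM in GFP cells (−0.42, edgeR adjusted p = 0.114). Smad3, of the TGF-β branch, had 1858 and 2134 counts in ERRγ cells and 1663 and 2003 in GFP cells (0.11, 95% interval −0.25 to 0.46). Smad2 of the same branch had −0.22 (−0.62 to 0.17), and the shared partner Smad4 had 0.14 (−0.18 to 0.45).

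Of the intracellular inhibitors, Smad7, which blocks type I receptors and is itself induced by the pathway, had 728 and 942 counts in ERRγ cells and 485 and 500 counts in GFP cells. Both ERRγ libraries were above both GFP libraries, at 78.9 ± 19.8 and 47.2 ± 3.35 CPM, and the gene did not pass (log2 fold change 0.74, SE 0.19, edgeR adjusted p = 0.0593). It passed with DESeq2 (adjusted p = 0.0175) and with libraries scaled by totals alone (adjusted p = 0.0361). Smad6, which acts mainly on BMP signals, had 24 and 18 counts in ERRγ cells and 38 and 27 in GFP cells (−0.68, SE 0.50, edgeR adjusted p = 0.47). Skil, which encodes the SMAD corepressor SnoN, had 828 and 1311 counts in ERRγ cells and 866 and 936 in GFP cells. ERRγ library 2 alone stood high, at 1.75 times ERRγ library 1, and the groups overlapped (0.24, SE 0.24, edgeR adjusted p = 0.61).

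**Figure D4:**
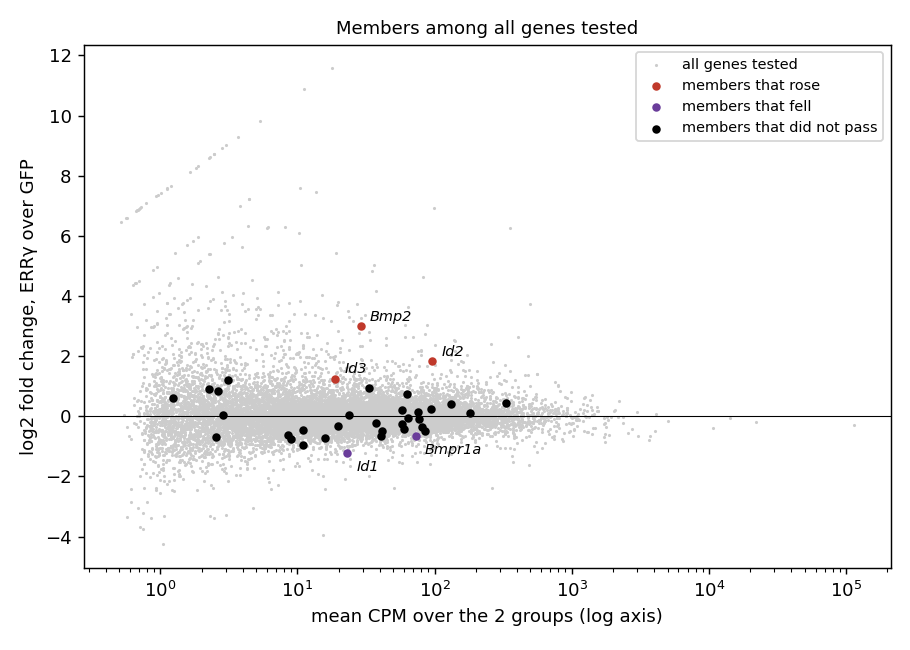
Log2 fold change of ERRγ over GFP against the mean CPM of the 2 groups (log axis) for the 13070 genes tested (grey) and the 35 tested members (red rises, purple falls, black not past the threshold). The members that did not pass lie within the band of all genes, and Bmp2, Id2 and Id3 stand at its upper side.

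Other genes of the pathway came from a written list of 67 genes with a row, of which 43 were tested. Of these 1 rose and 3 fell, and 39 did not pass, with a median log2 fold change of −0.13. The 4 calls are 9.30% of the 43, against 6.84% of all genes tested in either direction, 5.06% that rose and 1.78% that fell. Acvr1c, a type I receptor for nodal and activin-like ligands, rose: it had 48 and 44 counts in ERRγ cells and 6 and 9 in GFP cells (5.96-fold, log2 fold change 2.58, SE 0.52, edgeR adjusted p = 0.0273). Its level was low, 4.31 ± 0.0452 CPM in ERRγ cells and 0.710 ± 0.137 CPM in GFP cells, and exons of the antisense gene Gm13544 overlap it. Thbs1, whose product thrombospondin 1 can release active TGF-β, had 3209 and 1984 counts in ERRγ cells and 5662 and 4990 counts in GFP cells. It fell, with no overlap of the groups (log2 fold change −1.09, SE 0.21, edgeR adjusted p = 0.0231). Exons of Gm29233, a noncoding RNA gene on the other strand, overlap those of Thbs1. Pmepa1, a TGF-β target whose product restrains SMAD signalling, fell to 548 ± 76.0 CPM in ERRγ cells, against 887 ± 62.4 CPM in GFP cells (−0.70, SE 0.15, edgeR adjusted p = 0.0366). Nbl1, a secreted BMP antagonist of the DAN family, fell to 39.5 ± 0.328 CPM in ERRγ cells, against 61.1 ± 5.36 CPM in GFP cells (−0.63, SE 0.14, edgeR adjusted p = 0.0381). With libraries scaled by totals alone the call for Nbl1 ended (adjusted p = 0.0775).

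None of the 13 tested genes in the list of textbook TGF-β targets passed with edgeR; 3 had an unadjusted p under 0.05 (23.1%, as over all genes tested), and the median log2 fold change of the 13 was −0.19. DESeq2 called 2 of them, Ctgf and Fn1, and limma-voom called 0. Other edgeR settings did call targets: 1 with library totals alone (Fn1), 2 with the replicate number as a block (Tagln and Acta2), 6 with no filter on low counts, 8 without ERRγ library 1 and 3 without ERRγ library 2. Without GFP library 1 or GFP library 2 the count was 0. Ctgf, a matricellular growth factor, stood at 2080 ± 301 CPM in ERRγ cells and 3032 ± 458 CPM in GFP cells (log2 fold change −0.54, edgeR adjusted p = 0.112). Fibronectin, Fn1, stood at 1068 ± 134 CPM in ERRγ cells and 1550 ± 206 CPM in GFP cells (−0.54, edgeR adjusted p = 0.0967).

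**Figure D5:**
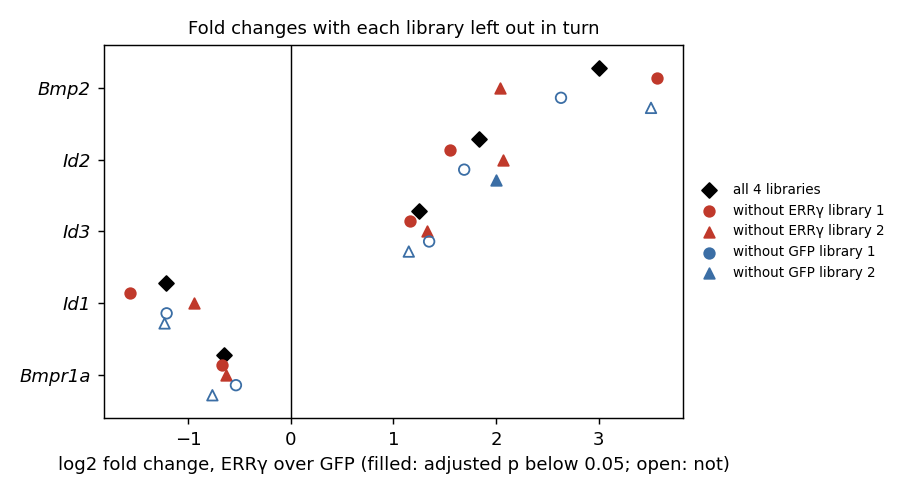
Log2 fold change of ERRγ over GFP for the 5 members past the threshold, with all 4 libraries (diamonds) and with 1 library left out (red: an ERRγ library, blue: a GFP library, circles library 1, triangles library 2). Filled marks have an adjusted p below 0.05; every mark keeps its side of 0, and most marks for a left-out GFP library are open.

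Each call kept its direction with any 1 library left out, but whether it passed depended on which group lost a library. Without GFP library 1 no member passed with edgeR, and without GFP library 2 only Id2 passed. The log2 fold changes without GFP library 1 and without GFP library 2 were 2.63 and 3.51 for Bmp2, 1.69 and 1.99 for Id2, 1.35 and 1.15 for Id3, −1.21 and −1.23 for Id1, and −0.53 and −0.76 for Bmpr1a. In these 2 fits the spread comes from the ERRγ pair alone, and calls over all genes numbered 99 and 139, against 894 with all libraries. Without ERRγ library 1 and without ERRγ library 2 the log2 fold changes were 3.57 and 2.04 for Bmp2 and 1.55 and 2.07 for Id2. In the same order they were 1.16 and 1.33 for Id3, −1.57 and −0.94 for Id1, and −0.67 and −0.63 for Bmpr1a. Each of these calls stayed past the threshold there. With only GFP replicates left to estimate variation, far more of all genes passed than with all libraries. Passing in these fits is therefore weak evidence that a call is robust. The calls for Acvr1c, Thbs1, Pmepa1 and Nbl1 ended both without GFP library 1 and without GFP library 2 (edgeR adjusted p from 0.0919 to 0.313). With limma-voom the call for Bmp2 ended (adjusted p = 0.0599).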

How the data were processed

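Transcript-end libraries came from total RNA and a QuantSeq kit, per the labels' protocols. Raw, unscaled read counts per gene symbol were deposited in a separate table for every library. The submitters' processing notes list Bowtie2, edgeR and mm10; what counted the reads, the annotation, use of strand and treatment of multiply mapping reads were not given in those sources. Reads of overlapping genes may therefore be shared, and without molecular identifiers the counts include PCR copies. A floor of 3 counts corresponds to 0.267 to 0.307 CPM.

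Of 23282 rows, 13070 passed filterByExpr (minimum count 10, group known) and were tested in edgeR 4.0.16 (R 4.3.3) with TMM scaling, a model of the group alone (2 residual degrees of freedom), glmQLFit and glmQLFTest. Two-sided p-values were adjusted by Benjamini-Hochberg across every row tested, with a threshold of 0.05. The SE is the size of the log2 fold change divided by the square root of F. The 95% intervals use the t quantile at the test's total, not residual, degrees of freedom. CPM are library totals times TMM factors. The filter left out Tgfb1, Acvr1b, Tgfbr3, Nog and Id4. Chi-square per degree of freedom was 22.6 within the ERRγ pair and 14.3 within the GFP pair, above counting error. The test was tried on simulated counts.

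All members are accounted for; counts per library are given for those past the threshold and, per role, for the tested member with the largest change and the one with the most counts, and some others were added after their values were seen. Other pathway genes are named where they passed; Ctgf, Fn1, Tagln, Acta2 and the single cell type markers named were chosen after their values were seen. The result of 1 other listed gene is not reported here. The members and lists were chosen with earlier results of these data known. Alternatives were DESeq2 1.42.0, limma-voom (limma 3.58.1), other scalings, other filters, a replicate block and each library left out. Promoters come from the RefSeq table on GRCm38.p6, which held 27 of the 40 members. Positions come from GENCODE M21, matched by symbol.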

Additional observations from a re-analysis of the deposited data

How the results depend on the processing

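With 2 libraries a group, calls depend on few values. Over all genes, 661 rose and 233 fell; with no filter on low counts 1271 rose and 738 fell, and with 1 library left out 92 to 1597 rose and 7 to 1098 fell. Of the members, 3 rose and 2 fell. With DESeq2 5 rose, with no filter 5 rose and 5 fell, with library totals alone 1 fell, and with 1 library left out 0 to 7 rose and 0 to 9 fell; the high ends come without ERRγ library 1. Of the other pathway genes, 1 rose and 3 fell. With DESeq2 5 fell, with no filter 5 rose and 7 fell, with the filter of 5 CPM in 2 libraries 0 rose, since Acvr1c was then too low to be tested, and with 1 library left out 0 to 7 rose and 0 to 11 fell. The 0 with the 5 CPM filter is edgeR's. For members and other pathway genes alike, the left-out fits gave the lowest numbers without a GFP library, where the spread comes from the ERRγ pair alone.

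Over all genes tested, libraries numbered alike did not deviate together (correlation of deviations 0.0093 over 13070 genes, 2 pairs), so the numbers were not taken as pairs, although many members and the islet markers were lower in library 2 of both groups. With the replicate block 5 of the 35 members tested rose and 3 fell, adding Tgfb2 (edgeR adjusted p = 0.0231), Smad7 (0.0451) and Ltbp2 (0.0493). Of the 43 other pathway genes tested, 1 rose and 5 fell. Over all 13070 genes tested with that block, 776 rose and 315 fell, and 8.35% passed.

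Esrrg had a log2 fold change of 6.26; with limma-voom it was 5.46 and did not pass (adjusted p = 0.0623), and with 1 library left out it was 3.81 to 7.12, not passing without GFP library 1 or 2 (edgeR adjusted p = 0.168 and 0.127).

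With 1 library left out the sign changed for members near 0 or led by 1 library, all uncalled: Ltbp1 (−0.29 to 0.16), Ltbp2 (−1.12 to 0.00029), Bmp1 (−0.32 to 0.16), Inha (−0.20 to 0.33), Acvr2a (−0.31 to 0.31), Grem1 (−0.81 to 0.0067), Smad3 (−0.080 to 0.27) and Skil (−0.23 to 0.59). The cause was not tested. The 5 called members kept their direction in each alternative run. Members at a few counts per library are limited by depth.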

Other observations

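The library number went with the level of many members. Of the 35 tested members, 16 were lower in library 2 than in library 1 in both groups and 6 were higher in library 2 in both, whereas of all 13070 genes tested 25.5% were lower in library 2 of both groups and 25.5% were higher. Of the 10 fibroblast and stellate cell markers, 6 were lower in library 2 of both groups and 1 was higher. Of the 5 islet markers tested, 4 were lower in library 2 of both groups and 0 were higher. The part of these cells in the members' levels was not tested.

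Counts of related genes within a library gave ratios free of library scaling. The ratio of Tgfb2 to Tgfb3 counts was 5.58 and 8.23 in ERRγ cells and 2.39 and 1.58 in GFP cells. The ratio of Inhba to Fst counts, an activin subunit against its antagonist, was 37.9 and 73.7 in ERRγ cells and 17.4 and 24.1 in GFP cells. The ratio of Bmp2 to Bmp4 counts was 6.19 and 17.2 in ERRγ cells and 1.83 and 6.13 in GFP cells.

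Gdf15, a stress-induced distant relative of the family, had 2321 and 6613 counts in ERRγ cells and 1561 and 1784 in GFP cells, and did not pass (log2 fold change 1.43, SE 0.44, edgeR adjusted p = 0.0966). Its level in ERRγ library 2 was 3.15 times that in ERRγ library 1, against a ratio of 1.00 between the GFP libraries. This gene was chosen after its values were seen.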
